A study of Homo sapiens with 12 samples.

Results

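Genes of cholesterol and fatty acid synthesis were followed across 12 RNA-seq libraries of MV4-11. This established human line was grown from acute myeloid leukemia and has FLT3-ITD, an internal tandem duplication in the receptor kinase FLT3 that leaves it switched on. The members are 36 genes out of 43876 in the expression table, and all 36 passed the filter on low values that left 18574 genes to test. They were matched by symbol to the Ensembl identifiers and comprise 8 enzymes of the mevalonate pathway down to squalene, 10 enzymes that turn squalene into cholesterol, 5 regulators, 4 genes of sterol transport and receptor turnover, and 9 genes of fatty acid and lipid synthesis. The genes were chosen by their known roles, but on a measured value: CYP51A1, the lanosterol demethylase, had a higher mean FPKM with the liposomal drug than with DMSO in these libraries. For that reason its values with that drug, and those of the other members in the same contrast, are given as a description with no test. Each condition had 3 libraries taken at 24 h. Mito-Lipo cells received 20 nM mitoxantrone-liposome, a topoisomerase poison in a liposomal form that the sample labels call mitoxantrone. Gilteritinib cells received 25 nM gilteritinib, an inhibitor of FLT3. Com cells received 20 nM of the first and 20 nM of the second, and DMSO cells received the solvent. The gilteritinib dose therefore differed between Com and Gilteritinib, while the dose of the first drug was the same in Com and Mito-Lipo. All libraries came from the same cell line, and no source used here says whether the 3 libraries of a condition were separate cultures, so p-values measure only the spread between these libraries.

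Cells make cholesterol from acetyl-CoA through the mevalonate pathway and a series of sterol reactions, and they adjust it through the transcription factors SREBP1 and SREBP2, encoded by SREBF1 and SREBF2. When the membrane of the endoplasmic reticulum is poor in cholesterol, SCAP carries the SREBPs to the Golgi, where they are cut and freed to switch on these genes. When sterol is plentiful, the INSIG proteins hold SCAP back, and the LXR receptors switch on ABCA1, ABCG1 and MYLIP, which export cholesterol or mark its receptor for breakdown. SREBP1 acts more on fatty acid genes such as FASN and SCD, and SREBP2 more on sterol genes such as HMGCS1 and SQLE. Dividing leukemia cells draw on both branches for new membrane.

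The libraries held between 31724969 and 41330723 fragments, as recovered from the steps that whole fragments make in the FPKM values. FPKM is the number of fragments scaled to gene length and to the mapped fragments of the library, so levels can be compared between genes. All 8 myeloid markers listed for these cells were in the table, with FLT3 between 132 and 171 FPKM and PTPRC between 13.3 and 19.9 FPKM. Of the markers of other cell types found in the table, 8 of 10 stayed under 1 FPKM in every library, and the others reached at most 2.85 FPKM. The replicate numbers divided the libraries. Replicates 2 and 3 of a condition differed by 2.09 to 5.55 times the variance that counting alone gives, whereas replicate 1 differed from the others by 12.6 to 23.7 times, as medians over 1469 genes. By this measure no 2 libraries of a condition were alike enough to be the same library deposited again. What replicate 1 shares apart from its number is not given in the sources used here. Bulk RNA cannot tell fewer cells of a kind from less RNA per cell.

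Every member was detected in all libraries, at mean levels that spanned 184-fold. Fatty acid genes and a regulator headed the order. SCD, the desaturase that makes oleate, averaged 164 FPKM over the 12 libraries, FASN, the fatty acid synthase, 127 FPKM, INSIG1, which holds SCAP back when sterol is plentiful, 122 FPKM, and ACLY, which supplies cytosolic acetyl-CoA, 109 FPKM. SQLE, the squalene epoxidase, was the highest of the sterol enzymes at 69.9 FPKM and ACAT2, which joins acetyl-CoA units for the mevalonate pathway, the highest of that pathway at 42.7 FPKM. At the low end stood LSS, the lanosterol synthase, at 2.71 FPKM, FDFT1, the squalene synthase, at 2.62 FPKM, ACACA, the acetyl-CoA carboxylase, at 1.35 FPKM, ELOVL6, a fatty acid elongase, at 1.24 FPKM, and ABCG1, a cholesterol exporter, at 0.890 FPKM. SREBF2 at 64.1 FPKM stood above SREBF1 at 32.9 FPKM, and INSIG1 above INSIG2 at 5.55 FPKM, in every library. CYP51A1 was among the lower members, at 3.20 FPKM. The order of neighbours was not firm, since the libraries of SCD ran from 52.3 to 302 FPKM and those of FASN from 60.7 to 178 FPKM. The fewest fragments behind a value were 19, for ABCG1, and no other member had fewer than 100 in any library.

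**Figure D1:**
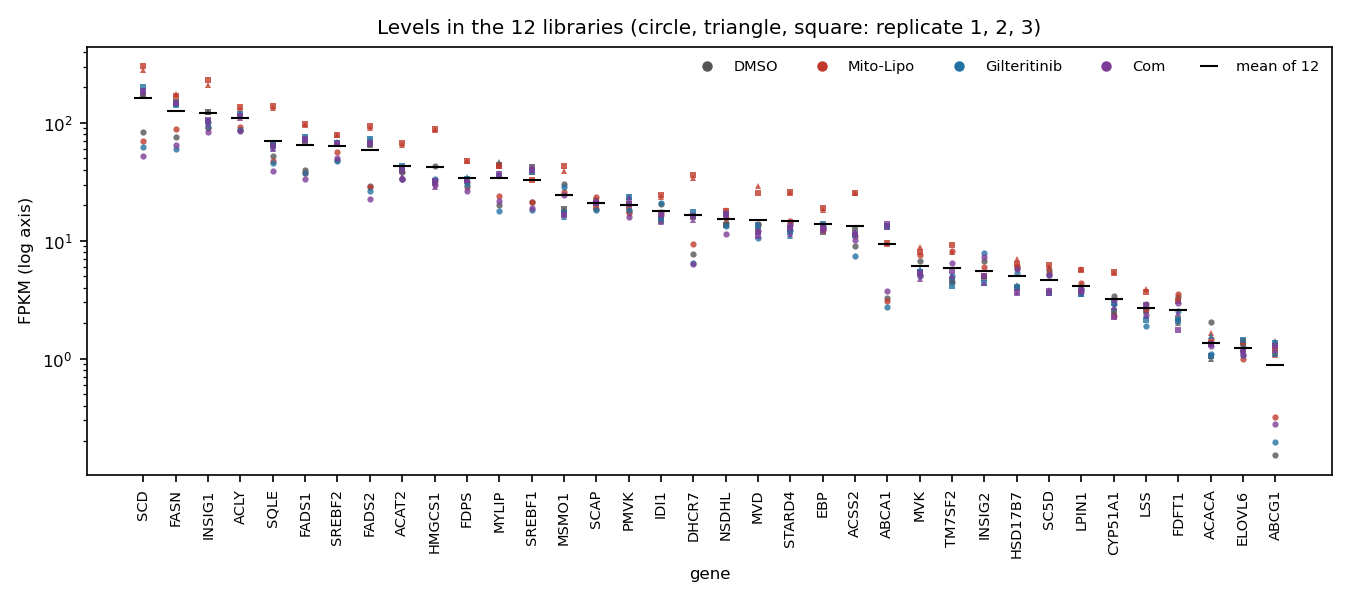
FPKM of the 36 genes in each of the 12 libraries, on a log axis, ordered by the mean of the 12 (black dash), with colours for the 4 conditions and shapes for the replicate numbers. SCD led with a mean of 164 FPKM, ABCG1 was lowest with 0.890 FPKM, and for genes such as ABCA1, DHCR7 and SCD the circles of replicate 1 lie well under the other shapes.

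Some members were several-fold lower in replicate 1 of every condition. ABCA1, the exporter that loads cholesterol onto apolipoproteins, was at 2.77 to 3.75 FPKM in the 4 replicate 1 libraries and at 9.40 to 14.0 FPKM in the other 8, a ratio of means of 3.85. ABCG1 was at 0.152 to 0.321 FPKM against 1.08 to 1.40 FPKM. SCD was at 52.3 to 84.4 FPKM against 175 to 302 FPKM, and FADS2, a fatty acid desaturase, at 22.8 to 29.4 FPKM against 65.1 to 94.0 FPKM. DHCR7, a sterol reductase, was at 6.39 to 9.33 FPKM against 14.9 to 36.4 FPKM. No replicate 1 library of these 5 genes reached the level of any other library. The fatty acid genes were not alike in this, ELOVL6 being 1.18 times and LPIN1 1.07 times as high in replicates 2 and 3 as in replicate 1, with overlapping libraries.

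In all, 14 of the 36 members had their 4 replicate 1 libraries under the other 8, as 6.39% of all genes tested did: FDPS, SQLE, DHCR7, SREBF1, SREBF2, ABCA1, ABCG1, MYLIP, ACLY, ACSS2, FASN, SCD, FADS1 and FADS2. Among them were both SREBP genes, and SREBF1 was 1.97 times as high in replicates 2 and 3. Only INSIG2, the second anchor of SCAP, lay above in replicate 1, at 5.98 to 7.88 FPKM against 4.38 to 5.06 FPKM, a pattern that 13.2% of all genes tested had. Several sterol enzymes did not follow the split. In DMSO alone, MSMO1, the sterol methyl oxidase, was at 30.5 FPKM in replicate 1 and at 18.3 and 18.5 FPKM in replicates 2 and 3, and HMGCS1, the synthase at the head of the mevalonate pathway, was at 42.9 FPKM against 30.9 and 31.9 FPKM. In DMSO the replicate numbers therefore differed in opposite directions for these genes and for ABCA1 or SCD.

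**Figure D2:**
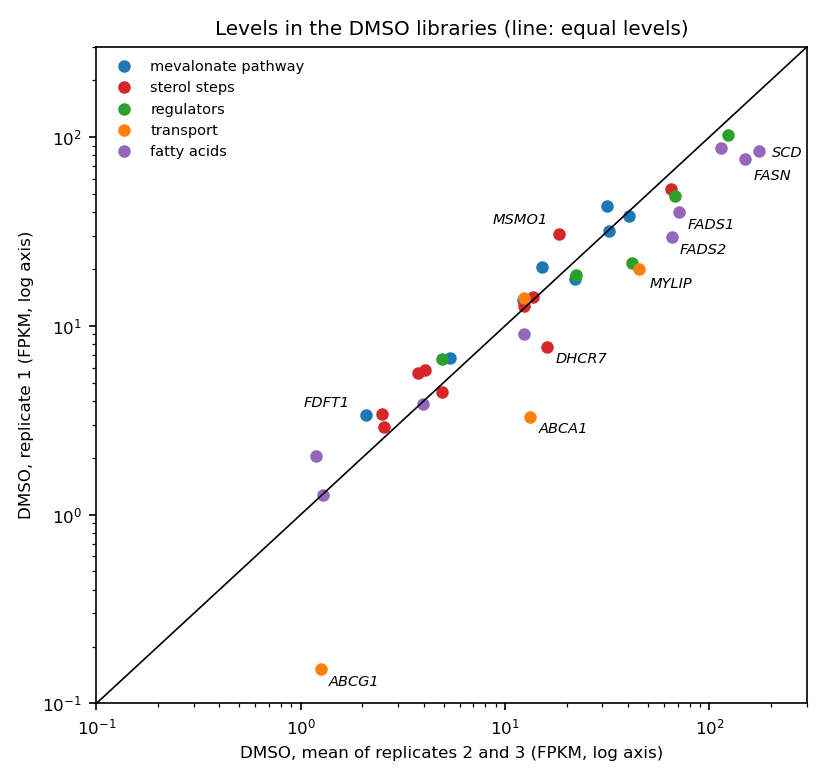
Level of each of the 36 genes in DMSO replicate 1 against the mean of DMSO replicates 2 and 3, both in FPKM on log axes, with the line of equal levels and colours for the 5 roles. ABCG1, ABCA1, DHCR7, SCD, FADS1 and FADS2 lie under the line and MSMO1 and FDFT1 above it.

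With Mito-Lipo, the 18 enzymes of the mevalonate and sterol steps, PMVK excepted, were at 1.30 to 2.81 times their DMSO level in replicates 2 and 3, and most were near it in replicate 1. The median log2 ratio of (FPKM + 1) to the DMSO library of the same number was 0.48 at number 2 and 0.51 at number 3 over the 36 members, beside 0.06 and -0.03 over all genes tested. At number 1 it was -0.03, beside 0.04. At numbers 2 and 3 the median of the 10 sterol enzymes was 0.59 and 0.75 and that of the 5 regulators 0.01 and 0.06. Higher than DMSO were 30 of 36 members at each of numbers 2 and 3, where 59.8% and 43.9% of all genes were higher, and 16 at number 1, where 56.6% were. These are the contrast and the libraries that drew attention to CYP51A1, so the counts describe the list and support nothing further.

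HMGCS1 showed the largest ratio of the 36 members at numbers 2 and 3. It was at 32.2, 86.8 and 89.5 FPKM in Mito-Lipo replicates 1, 2 and 3 and at 42.9, 30.9 and 31.9 FPKM in DMSO, which is 0.750, 2.81 and 2.81 times DMSO by number. Replicates 2 and 3 of Mito-Lipo were above all 10 other libraries, and replicate 1 was under its DMSO library. MVD, the decarboxylase that makes isopentenyl diphosphate, was at 13.8, 29.4 and 25.4 FPKM with Mito-Lipo and at 13.7, 12.2 and 12.2 FPKM with DMSO. MVK, the mevalonate kinase, was higher at every number, at 7.53, 8.91 and 8.10 FPKM against 6.73, 5.38 and 5.41 FPKM, with no overlap. ACAT2 was at 33.5, 65.4 and 67.7 FPKM against 38.2, 41.5 and 39.4 FPKM, so only replicates 2 and 3 stood out. FDFT1 was at 3.52, 3.20 and 3.10 FPKM against 3.37, 2.0 and 2.17 FPKM, where replicate 1 of DMSO overlapped the Mito-Lipo libraries. PMVK, the next kinase of the pathway, was the only mevalonate enzyme not higher at numbers 2 and 3, at 0.776 and 0.945 times DMSO.

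All 10 enzymes after squalene were higher than DMSO at numbers 2 and 3. SQLE was at 48.0, 133 and 139 FPKM with Mito-Lipo and at 52.8, 65.1 and 64.5 FPKM with DMSO. CYP51A1, from which the list began, was at 2.29, 5.37 and 5.49 FPKM with Mito-Lipo, or 4.38 ± 1.81 (SD, n = 3), and at 3.39, 2.48 and 2.54 FPKM with DMSO, or 2.8 ± 0.512 (SD, n = 3). Mito-Lipo replicates 2 and 3 were its highest libraries of the 12 and Mito-Lipo replicate 1 the lowest but for Com replicate 3, so the higher mean came from replicates 2 and 3. DHCR7, the last reductase on the way to cholesterol, was at 9.33, 34.3 and 36.4 FPKM against 7.74, 15.9 and 16.2 FPKM, that is 1.20, 2.15 and 2.25 times DMSO.

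TM7SF2, a sterol reductase of the endoplasmic reticulum, was 1.85 times DMSO at number 1 as well. It was at 8.24, 8.11 and 9.26 FPKM with Mito-Lipo and at 4.45, 5.14 and 4.68 FPKM with DMSO, so all Mito-Lipo libraries were above all DMSO libraries. LSS was at 2.62, 3.92 and 3.68 FPKM against 2.91, 2.54 and 2.57 FPKM, and EBP, the sterol isomerase, at 12.4, 18.1 and 18.9 FPKM against 12.8, 13.0 and 11.9 FPKM, so that both overlapped DMSO through replicate 1. NSDHL, a sterol dehydrogenase, was at 15.7, 18.1 and 17.8 FPKM against 14.2, 13.8 and 13.7 FPKM, without overlap.

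Among the regulators, INSIG1, itself a target of the SREBPs, was at 91.2, 211 and 231 FPKM with Mito-Lipo and at 102, 124 and 123 FPKM with DMSO, again high in replicates 2 and 3 alone. The genes of the factors and their escort moved less. SREBF2 was 1.15, 1.16 and 1.19 times DMSO at numbers 1, 2 and 3, SREBF1 was 0.992, 0.932 and 0.781 times, and INSIG2 was 0.894, 1.01 and 1.05 times. SCAP was at 23.6, 21.1 and 19.4 FPKM with Mito-Lipo and at 18.6, 22.5 and 21.8 FPKM with DMSO, with overlapping libraries. In transport, STARD4, a carrier of cholesterol between membranes and an SREBP target, was at 14.8, 25.5 and 25.9 FPKM against 14.1, 12.2 and 12.6 FPKM, above DMSO in every library. The LXR targets had no common direction. ABCA1 was at 9.40 and 9.67 FPKM in replicates 2 and 3 against 13.3 in both DMSO libraries, ABCG1 was 0.771 and 1.11 times DMSO there and MYLIP, the ligase that marks lipoprotein receptors for breakdown, 0.921 and 0.978 times.

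Of the fatty acid genes, ACSS2, which makes acetyl-CoA from acetate, was at 2.13 and 1.98 times DMSO in replicates 2 and 3 and SCD at 1.61 and 1.72 times. SCD was at 70.6, 282 and 302 FPKM with Mito-Lipo and at 84.4, 175 and 175 FPKM with DMSO, so its replicate 1 libraries were both far lower than the rest. FASN was 1.17, 1.19 and 1.12 times DMSO, ELOVL6 was 0.789, 1.14 and 1.04 times, and ACACA was 0.723, 1.65 and 0.766 times without a common direction.

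**Figure D3:**
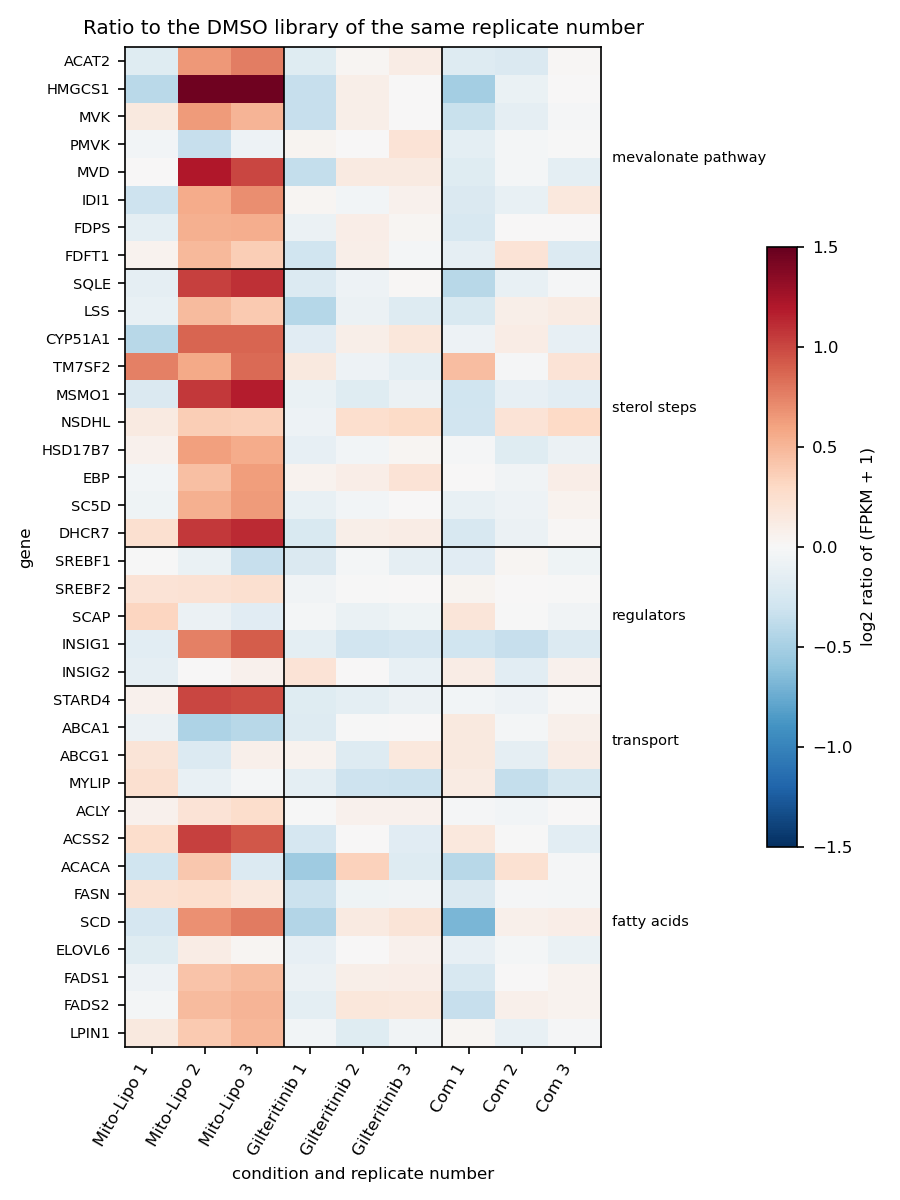
Colours give the log2 ratio of (FPKM + 1) between each treated library and the DMSO library of the same replicate number, for the 36 genes (rows, by role) and 9 treated libraries (columns). Red fills Mito-Lipo replicate 2 for 30 of 36 genes and replicate 3 for 30, not all of them the same, led by HMGCS1 at 1.46 in both. Mito-Lipo replicate 1 and the Gilteritinib and Com columns are mostly paler. Exceptions include TM7SF2 at 0.76 in Mito-Lipo replicate 1, SCD at -0.68 in Com replicate 1 and ACACA at -0.53 in Gilteritinib replicate 1.

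By a fixed fold, 15 members were at least 1.5 times DMSO at both number 2 and number 3, as were 3.24% of all genes tested, and none was 1.5 times lower at both, as 1.90% of all genes were. At number 1 only TM7SF2 and ABCG1 passed 1.5-fold, where 7.72% of all genes did. Members with all 3 Mito-Lipo libraries above all 3 of DMSO numbered 7 of 36, beside 7.68% of all genes tested, namely MVK, MVD, TM7SF2, NSDHL, HSD17B7, STARD4 and LPIN1, the last a lipid phosphatase, and none had all below, beside 5.9% of all genes. At number 1 the margin was small for MVD, at 1.01 times DMSO, and for HSD17B7, a sterol ketoreductase, at 1.05 times. Just inside the 1.5-fold bound stood IDI1, the isomerase of isopentenyl diphosphate, at 1.5 and 1.67 times, and just outside MVK at 1.66 times and a value that rounds to 1.5 from below, and LSS at 1.55 and 1.43 times. Mito-Lipo replicates 2 and 3 lay above the 10 other libraries for 25 members, as for 6.42% of all genes. Across the 4 conditions of a number, Mito-Lipo was the highest for 16, 30 and 28 members at numbers 1, 2 and 3, as it was for 39.3%, 42.9% and 27.0% of all genes.

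**Figure D4:**
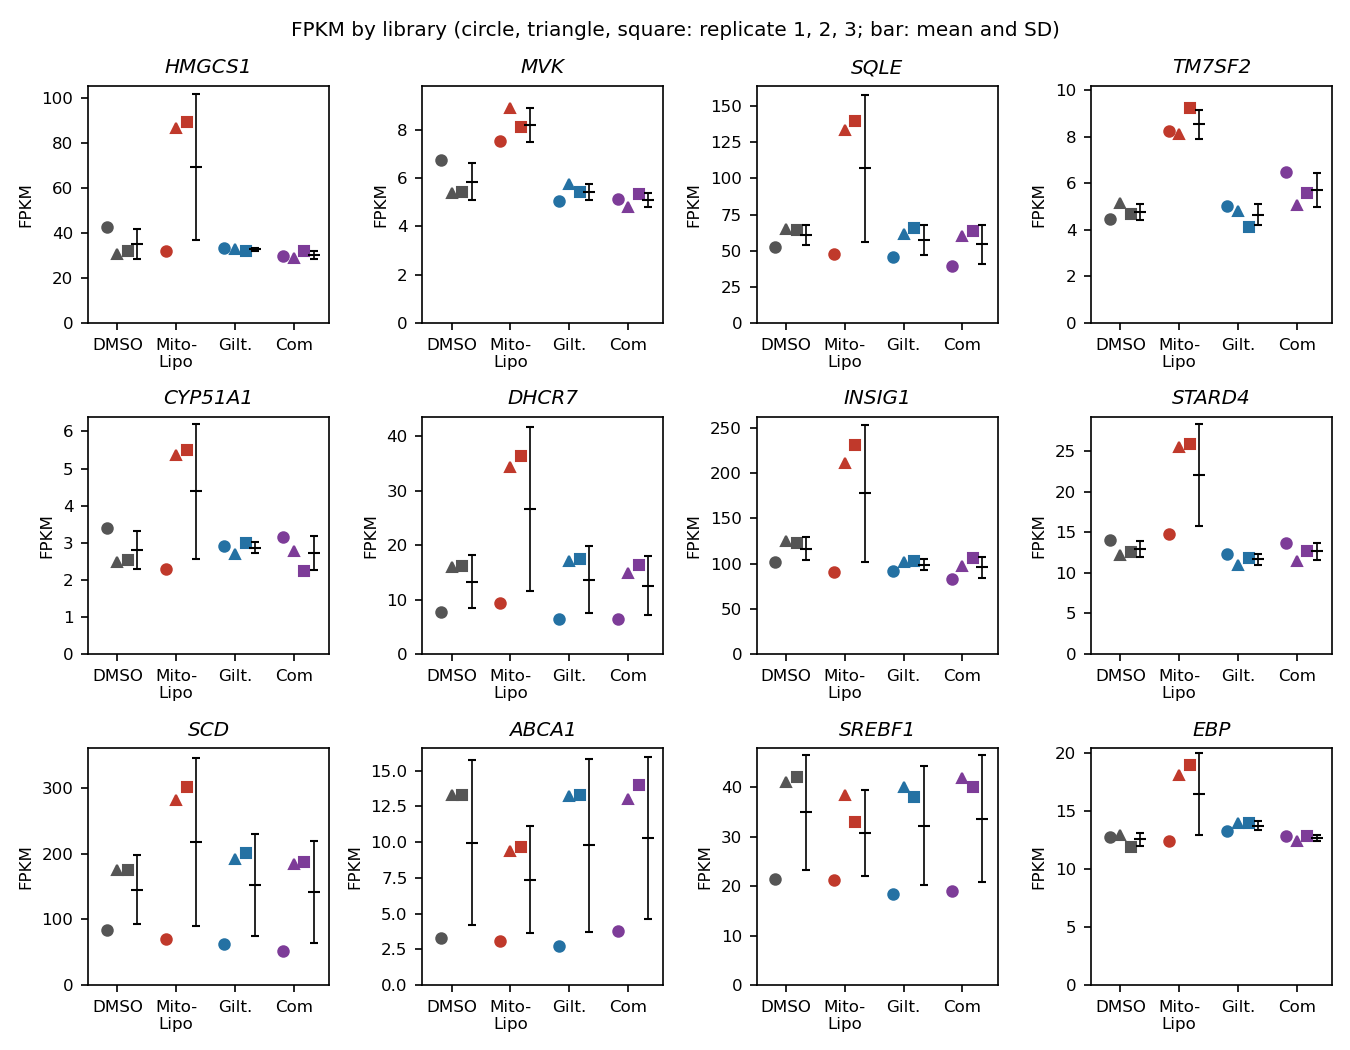
FPKM of 12 genes in each library, on axes that start at 0, with the replicate numbers as shapes and the mean and SD of 3 libraries as a bar beside them. In HMGCS1, SQLE, CYP51A1, INSIG1 and STARD4 the red triangle and square of Mito-Lipo replicates 2 and 3 stand above everything else and the red circle of replicate 1 lies near DMSO; MVK and TM7SF2 have all 3 red points on top, and in ABCA1 the red triangle and square lie under those of the other conditions.

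The stretches before the RefSeq start of a few of these genes are shown because many of the members were high in the same libraries and because SREBPs are known to act on such promoters with the factor NF-Y. RefSeq gave a window from 250 bases before to 50 bases after the start for 31 of the 36 members, 44 windows in all on GRCh38.p14, and none was used for ACAT2, FDFT1, SQLE, ABCG1 and FASN. The sequences run 5′ to 3′ on the strand of the gene and leave out any part that GENCODE 29 annotates as UTR. Capitals mark matches on either strand to the sterol regulatory element TCACNCCAC, the CCAAT box that NF-Y binds, which reads ATTGG on the other strand, and the E-box CACGTG. They are CYP51A1 (chr7:92134531-92134665, minus strand, positions -188 to -54 from the start), SREBF2 (chr22:41832855-41833078, plus strand, positions -250 to -27), INSIG1 (chr7:155297628-155297775, plus strand, positions -250 to -103) and HMGCS1 (chr5:43313513-43313662, minus strand, positions -250 to -101). The CYP51A1 stretch lies before the RefSeq start but inside the gene as GENCODE 29 draws it (chr7:92112151-92134803), so it is not upstream of that annotation.
CYP51A1: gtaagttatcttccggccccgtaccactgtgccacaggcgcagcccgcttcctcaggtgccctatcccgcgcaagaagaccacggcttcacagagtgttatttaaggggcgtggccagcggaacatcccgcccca
SREBF2: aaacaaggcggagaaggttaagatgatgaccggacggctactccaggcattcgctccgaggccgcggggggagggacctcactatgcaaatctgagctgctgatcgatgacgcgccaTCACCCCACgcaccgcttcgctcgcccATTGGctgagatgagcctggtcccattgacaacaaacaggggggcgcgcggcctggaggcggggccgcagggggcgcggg
INSIG1: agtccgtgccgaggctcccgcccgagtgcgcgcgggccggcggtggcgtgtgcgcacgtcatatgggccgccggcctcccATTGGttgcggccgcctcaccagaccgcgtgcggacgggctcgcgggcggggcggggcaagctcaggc
HMGCS1: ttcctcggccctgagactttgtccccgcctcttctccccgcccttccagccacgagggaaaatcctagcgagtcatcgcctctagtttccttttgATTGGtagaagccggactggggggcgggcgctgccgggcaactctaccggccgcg

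The element TCACNCCAC was found in SREBF2 alone among the 31, at positions -133 to -125, and 1.13% of the 35116 RefSeq windows hold it. SREBF2 also has a CCAAT box at positions -106 to -102. CCAAT was found in 22 of the 31 members, or 26 of 44 windows (59.1%), beside 34.6% of all windows. HMGCS1 has 2 windows, and each match is placed from the start of its own window. Its matches at positions -155 to -151, which is shown, and -100 to -96 may therefore be 1 box. In INSIG1 the CCAAT box lay at -170 to -166. The E-box CACGTG was in 5 members, LSS, SC5D, SCAP, INSIG1 and ABCA1, or 6 of 44 windows (13.6%), beside 7.26% of all windows. In INSIG1 it lay at positions -55 to -50, past the stretch shown. No member window held the LXR element, AGGTCA repeated after any 4 bases, which 0.0199% of all windows hold. The CYP51A1 window held none of the 4. These matches describe letters only, and no binding was measured in these libraries.

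Com set the same dose of mitoxantrone-liposome beside gilteritinib, so Com against Mito-Lipo asks how these genes stood when the second drug was added. At numbers 1, 2 and 3, 30, 31 and 30 of 36 members were lower in Com, where 59.0%, 61.8% and 46.5% of all genes were. HMGCS1 was at 29.8, 28.8 and 32.1 FPKM in Com replicates 1, 2 and 3, SQLE at 39.3, 60.2 and 63.9 FPKM, INSIG1 at 83.3, 97.4 and 107 FPKM, and STARD4 at 13.7, 11.5 and 12.8 FPKM. For HMGCS1 and STARD4 every Com library was under every Mito-Lipo library, as for 10 of 36 members and 6.11% of all genes tested, with 0 members and 3.22% above. For SQLE and INSIG1 Mito-Lipo replicate 1 lay within the range of Com. The median log2 ratio of the members to the Mito-Lipo library of the same number was -0.12, -0.50 and -0.52 at numbers 1, 2 and 3, beside -0.05, -0.07 and 0.02 over all genes tested. This comparison shares the Mito-Lipo libraries with the contrast that drew attention to the list, so it is not independent of it, and CYP51A1 is given by value only. It was at 3.16, 2.77 and 2.25 FPKM in Com, or 2.73 ± 0.457 (SD, n = 3).

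In the limma fit over all 12 libraries, none of the other 35 members, and 0 of 18574 genes (0% called), passed an adjusted p of 0.05 between Com and Mito-Lipo. With no adjustment, at a p under 0.05, 15 of the 35 were lower and 0 higher, beside 4.12% and 1.41% of all genes tested. Without Mito-Lipo replicate 2 this count was 8 (1.71% of all genes lower) and without Mito-Lipo replicate 3 it was 8 (6.32%). MVK differed by -0.59 on the log2(FPKM + 1) scale (SE 0.10, limma adjusted p = 0.429), TM7SF2 by -0.51 (SE 0.11, limma adjusted p = 0.709) and STARD4 by -0.72 (SE 0.17, limma adjusted p = 0.821). HMGCS1 had the largest difference, -1.04 (SE 0.31, limma adjusted p = 0.888). With the replicate number as a block, still none of them passed the adjusted threshold (0.0108% of all genes did), and 24 were lower and 1, ABCA1, higher at an unadjusted p under 0.05, beside 8.58% and 3.6% of all genes.

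With replicate 1 as a batch term, 0 of the 35 passed the adjusted threshold, beside 0.0592% of all genes. The fit restricted to replicates 2 and 3, where limma rested on 2 libraries a condition and the spread of 8, gave a different count. Its Mito-Lipo libraries are the ones that gave CYP51A1 its higher mean. Its calls are therefore not independent of how the list was chosen and do not support it. In that fit 24 of the 35 members were lower in Com than in Mito-Lipo and 1 was higher at a limma adjusted p under 0.05. Of all genes 3.51% were lower and 2.62% higher, 6.13% in all. HMGCS1 was lower by a log2 of -1.51 (SE 0.05, limma adjusted p = 0.000184), MSMO1 by -1.26 (SE 0.06, limma adjusted p = 0.000331) and DHCR7 by -1.13 (SE 0.05, limma adjusted p = 0.000392). SQLE differed by -1.12, INSIG1 by -1.11, ACSS2 by -1.07 and STARD4 by -1.03 on the same scale, all past the threshold. The member that rose was ABCA1, at 13.0 and 14.0 FPKM in Com replicates 2 and 3 against 9.40 and 9.67 FPKM in Mito-Lipo, a log2 difference of 0.46 (SE 0.05, limma adjusted p = 0.00579).

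By role, 6 of 8 mevalonate enzymes fell (FDFT1 and PMVK did not pass), and of the sterol enzymes apart from CYP51A1 all but LSS and NSDHL fell. LSS stood at 2.34, 2.75 and 2.88 FPKM and NSDHL at 11.4, 16.1 and 17.0 FPKM in Com. Of the 5 regulators INSIG1 and SREBF2 fell, SREBF2 by a log2 of -0.23 (SE 0.03, limma adjusted p = 0.013), while SREBF1 (0.20), SCAP (0.10) and INSIG2 (-0.08) did not pass. Of the 4 transport genes STARD4 and MYLIP fell, ABCA1 rose and ABCG1 (0.05) did not pass. Of the 9 fatty acid genes 7 fell, SCD by a log2 of -0.65 (SE 0.04, limma adjusted p = 0.00129) and FASN by -0.23 (SE 0.04, limma adjusted p = 0.0223), while ELOVL6 (-0.14) and ACACA (0.01) did not pass. Without Mito-Lipo replicate 1 alone, 6 of the 35 fell, HMGCS1, INSIG1, MVD, STARD4, ACAT2 and EBP, beside 0.108% of all genes. That fit has no term for the replicate number and kept replicate 1 on the Com side only. Its differences therefore mix the conditions with the split between replicate numbers. The call therefore rested on which replicate 1 libraries were kept.

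**Figure D5:**
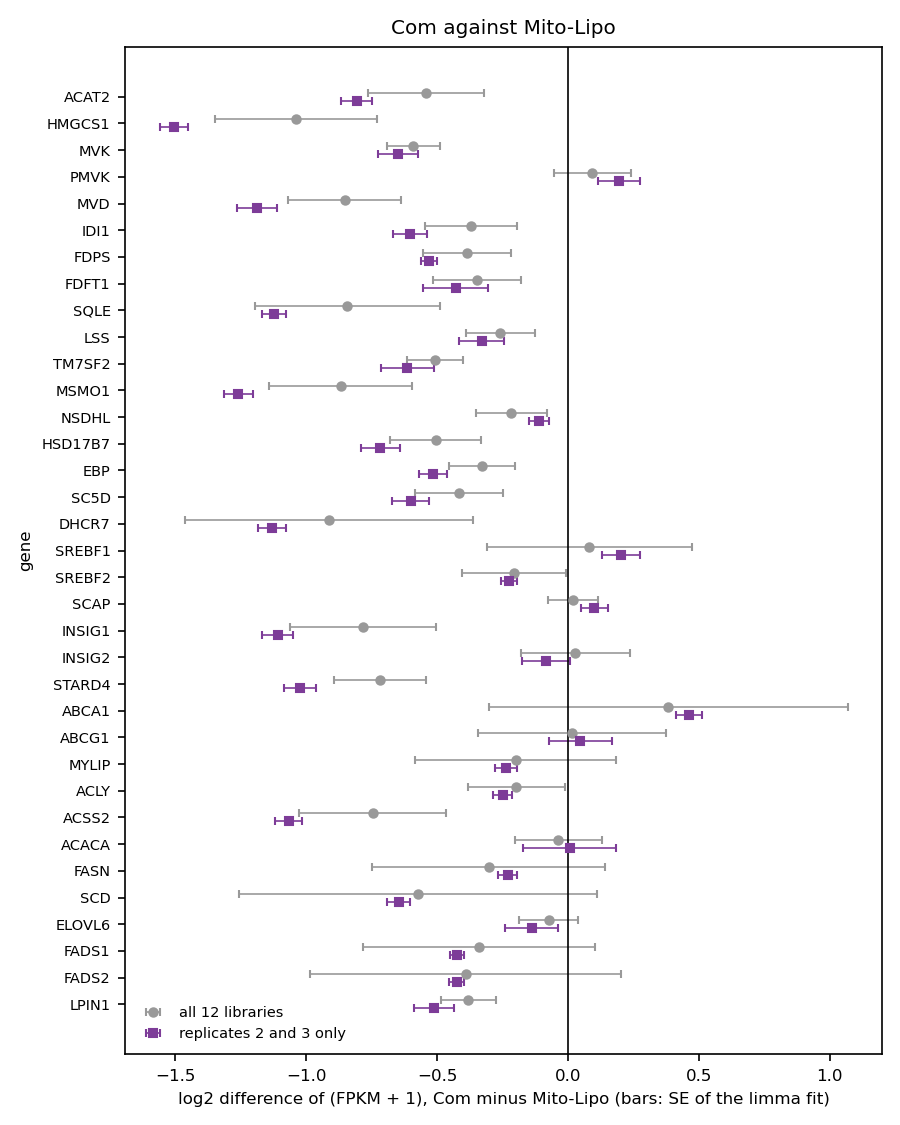
Com minus Mito-Lipo difference on the log2(FPKM + 1) scale with its SE for 35 genes, CYP51A1 left out, from the limma fit over all 12 libraries (grey circles) and over replicates 2 and 3 only (purple squares). The squares of HMGCS1, MSMO1, MVD, DHCR7, SQLE, INSIG1, ACSS2 and STARD4 lie past -1, ABCA1 lies at 0.46, and the SE of ABCA1, SCD, DHCR7 and FADS2 is widest with replicate 1 included.

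Gilteritinib against Mito-Lipo sets each drug by itself beside the other. It shares the same Mito-Lipo libraries, so its counts too are not independent of how the list was chosen. The picture was close to that of Com, and since the Mito-Lipo side is common to both, the likeness is no separate evidence. SQLE was at 45.8, 61.5 and 65.4 FPKM, MVK at 5.06, 5.75 and 5.43 FPKM, TM7SF2 at 5.01, 4.81 and 4.14 FPKM and CYP51A1 at 2.92, 2.70 and 2.98 FPKM in Gilteritinib replicates 1, 2 and 3. MVK and TM7SF2 were under every Mito-Lipo library, as were 9 of 36 members, beside 9.12% of all genes tested, with 0 members and 5.25% above. Over all libraries none of the 35 other members passed (0% of all genes called), the lowest limma adjusted p being 0.221 for TM7SF2 at a log2 difference of -0.76 (SE 0.11). At an unadjusted p under 0.05, 13 were lower, beside 6.56% of all genes, and 8 without Mito-Lipo replicate 2 (3.18%) or replicate 3 (9.58%). With the replicate block 24 were lower and 2, PMVK and ABCA1, higher by that measure, beside 12.5% and 5.45% of all genes. In replicates 2 and 3, 25 of 35 were lower and ABCA1 higher, beside 3.98% and 2.65% of all genes (6.63% in all), with LSS now among those lower by a log2 of -0.57 (SE 0.08, limma adjusted p = 0.0178) and MVK by -0.53 (SE 0.08, limma adjusted p = 0.0178). With replicate 1 as a batch term, 6 of the 35 were lower, ACSS2, DHCR7, TM7SF2, MVK, FASN and SREBF2, beside 0.964% of all genes, and without Mito-Lipo replicate 1, 7 were, beside 0.215%. The last fit, with no term for the replicate number, kept replicate 1 on the Gilteritinib side only.

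Gilteritinib against DMSO asks what the FLT3 inhibitor did by itself, and here the members as a whole stayed near DMSO at numbers 2 and 3. At number 1, 30 of 36 were lower, all 9 fatty acid genes among them, beside 63.1% of all genes tested. At numbers 2 and 3, 17 and 14 were lower, beside 44.1% and 59.3%. The median log2 ratio by number was -0.15, 0.00 and 0.01, beside -0.06, 0.02 and -0.04 over all genes tested. With all libraries the median of the limma differences was -0.04, beside -0.03 over all genes. No member passed an adjusted p of 0.05 (0% of all genes called) and none an unadjusted 0.05, beside 0.565% of genes higher and 1.30% lower. All 3 libraries were above DMSO for EBP, at 13.3, 14.0 and 13.9 FPKM against 12.8, 13.0 and 11.9 FPKM, beside 2.18% of all genes, and below it for LSS and LPIN1, beside 4.40%. LSS was at 1.90, 2.32 and 2.12 FPKM against 2.91, 2.54 and 2.57 FPKM. MYLIP was the member that fell in replicates 2 and 3, at 37.3 and 35.2 FPKM against 46.7 and 44.3 FPKM, a log2 difference of -0.32 (SE 0.04, limma adjusted p = 0.0399), where 0.581% of all genes fell and 0.0323% rose, 0.614% in all. Its replicate 1 libraries, at 17.9 and 20.0 FPKM, were far under both. In that fit the 95% intervals of all 36 differences lay within 1.5-fold of no change on the (FPKM + 1) scale. Over all libraries those of 22 did. Adding 1 makes this a looser bound in FPKM for members near 1 FPKM, such as ACACA, ELOVL6 and ABCG1.

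Com against DMSO had no calls among the members either, though more of them were lower than higher at numbers 1 and 2. At numbers 1, 2 and 3, 26, 25 and 18 of 36 were lower, where 52.1%, 51.5% and 53.6% of all genes were. Over all libraries the limma difference was below 0 for 28 members, all 8 mevalonate and all 9 fatty acid genes among them. Without Com replicate 1 it was below 0 for 16, in a fit that kept replicate 1 on the DMSO side only. No member passed an adjusted p of 0.05, where 1 gene of 18574 did (0.00538%), and none an unadjusted 0.05, beside 0.829% of genes higher and 0.84% lower. MVK, MVD and ELOVL6 had all 3 Com libraries under DMSO, beside 3.16% of all genes, and none had all above, beside 2.57%. MVK was at 5.14, 4.79 and 5.34 FPKM in Com and its lowest DMSO library at 5.38 FPKM, a gap smaller than the spread of either group. ELOVL6 was at 1.07, 1.17 and 1.19 FPKM against 1.26, 1.22 and 1.35 FPKM. TM7SF2 had the smallest p, with a log2 difference of 0.22 (SE 0.11, limma adjusted p = 1), its Com replicate 1 at 6.50 FPKM being the highest of that group. INSIG1 differed by -0.28 (SE 0.28, limma adjusted p = 1), and in replicates 2 and 3 by -0.28 (SE 0.06, limma adjusted p = 0.343). In replicates 2 and 3 no member passed the limma adjusted threshold, beside 0.0108% of genes higher and 0.0377% lower, 0.0485% in all. MYLIP came nearest, at 36.2 and 36.7 FPKM in Com against 46.7 and 44.3 FPKM in DMSO. Its log2 difference was -0.31 (SE 0.04, limma adjusted p = 0.135), close to that in Gilteritinib against DMSO. On the same (FPKM + 1) scale, the 95% intervals of all 36 members lay within 1.5-fold in replicates 2 and 3. Over all libraries those of 20 did.

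Com against Gilteritinib differs in both drugs, with 20 nM of gilteritinib in the first and 25 nM in the second. No member passed an adjusted p of 0.05 (0% of all genes called). LSS, TM7SF2 and SCAP had all 3 Com libraries above Gilteritinib, beside 3.87% of all genes, and EBP all below, beside 2.33%. TM7SF2 was the member with an unadjusted p under 0.05, where 0.802% of genes were higher and 0.829% lower, at a log2 difference of 0.25 (SE 0.11, limma adjusted p = 1). SCAP was at 21.2, 22.4 and 21.1 FPKM in Com and at 18.2, 20.8 and 20.9 FPKM in Gilteritinib, so that its lowest Com library lay just above its highest Gilteritinib library. No member passed the limma adjusted threshold in replicates 2 and 3 either, beside 0.0646% of genes higher and 0.0108% lower, 0.0754% in all. The 95% intervals of all 36 members lay within 1.5-fold there on the (FPKM + 1) scale, while over all libraries those of 21 did.

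The remaining members that led a comparison or a role were at like levels in these 2 conditions. ACAT2 was at 33.5, 42.3 and 42.8 FPKM in Gilteritinib and at 33.2, 35.5 and 39.8 FPKM in Com. FDFT1 was at 2.54, 2.20 and 2.1 FPKM and at 2.99, 2.45 and 1.76 FPKM. SCD was at 62.0, 192 and 201 FPKM and at 52.3, 184 and 187 FPKM. In each of the 3 genes the libraries of the conditions overlapped, and replicate 1 of SCD was the lowest by far. INSIG1 was at 91.9, 101 and 103 FPKM in Gilteritinib and overlapped Com. NSDHL was at 13.4, 16.7 and 16.8 FPKM, and ELOVL6 at 1.08, 1.24 and 1.45 FPKM beside 0.996, 1.40 and 1.40 FPKM with Mito-Lipo. Both overlapped Com. INSIG2 was at 7.88, 5.03 and 4.38 FPKM in Gilteritinib, 7.29, 4.39 and 5.05 FPKM in Com, 5.98, 5.06 and 5.05 FPKM with Mito-Lipo and 6.69, 5.03 and 4.79 FPKM with DMSO, highest in replicate 1 of every condition.

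Other genes of the same pathways were read from a second list of 54, of which 53 were in the table and 47 passed the filter on low values. Over all libraries none passed an adjusted p of 0.05 in any of the 5 comparisons tested with limma. At an unadjusted p under 0.05, 1 was higher and 5 lower in Com than in Mito-Lipo, where 1.41% and 4.12% of all genes were, 1 higher and 7 lower in Gilteritinib than in Mito-Lipo (2.96% and 6.56%), 2 higher in Com than in DMSO (0.829%) and 0 in the other comparisons. In replicates 2 and 3, 7 were lower and 1 higher in Com than in Mito-Lipo, beside 3.51% and 2.62% of all genes, and 8 lower and 2 higher in Gilteritinib than in Mito-Lipo, beside 3.98% and 2.65%, with 0 in the comparisons without Mito-Lipo. Lower in both were LPIN2, a lipid phosphatase, LIPA and NPC1, which release and export cholesterol from lysosomes, TMEM97, a partner of NPC1, ERG28, a scaffold of sterol enzymes, HSD17B12, a fatty acid elongation enzyme, and ACSL1, which activates fatty acids. NPC1 was at 13.6, 15.1 and 13.9 FPKM with Mito-Lipo and at 13.0, 11.2 and 11.6 FPKM in Com, a log2 difference of -0.32 in replicates 2 and 3 (SE 0.06, limma adjusted p = 0.0306). LPIN2 was at 11.4, 13.5 and 12.6 FPKM with Mito-Lipo and at 11.7, 10.8 and 10.1 FPKM in Com. HACD3, of the elongation cycle, was higher in Com by 0.20 (SE 0.03, limma adjusted p = 0.0245). FADS3, a desaturase relative, was at 2.03, 1.93 and 1.87 FPKM with Mito-Lipo and at 1.16, 0.982 and 1.21 FPKM with Gilteritinib, without overlap. The median difference of the 47 in Com against Mito-Lipo was -0.01 in replicates 2 and 3, where that of the 36 was -0.51. The 36 were chosen with the help of these Mito-Lipo libraries, so the 2 medians are a description only.

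Some members share sequence or place with other annotated genes, and the strand used in counting is not given in the sources used here. STARD4-AS1, antisense to STARD4, averaged 6.90 FPKM, or 46.5% of STARD4, and ran from 6.16 to 7.60 FPKM over the 12 libraries, a far narrower range than STARD4 itself. The antisense genes SREBF2-AS1 and CYP51A1-AS1 were at 2.81% and 7.07% of their partners. The pseudogene copies CYP51A1P3, CYP51A1P2 and CYP51A1P1 averaged 9.82%, 5.18% and 2.06% of the CYP51A1 mean. CYP51A1P3 reached 0.590 FPKM in its highest library. FDPSP2 averaged 5.99% of the FDPS mean, so reads of CYP51A1 and FDPS could have been divided in part.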

How the data were processed

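RNA-seq was made from 12 MV4-11 libraries, 3 for each of 4 conditions, grouped by the sample labels. The authors deposited a table of FPKM values per gene for each library; the submitters' processing notes name Bowtie 0.12.9, Cufflinks 2.1.1, HTSeq, DESeq2 and the build mm10, while the identifiers are human Ensembl genes, so no coordinates of the table were used. Symbols were given for 41461 of 43876 rows, and GENCODE 29 lists 40169 of the identifiers. FPKM carries no count, so limma 3.58.1 (R 4.3.3) was run on log2(FPKM + 1) with a mean-variance trend over all 12 libraries, for genes with at least 1 FPKM in at least 3 libraries; p-values were adjusted by Benjamini-Hochberg across the 18574 that passed. Adding 1 understates the change of low genes. Depth was recovered from the steps that whole fragments make in FPKM, and limits precision most for low genes. Tables were handled with Python 3.11.15, pandas 2.3.3 and numpy 2.4.6.

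The members and lists were chosen with earlier results of these data known. Genes named with all their values were CYP51A1, the 3 members with the smallest unadjusted p in each comparison, the highest and lowest member of each role and, of the second list, the 3 with the smallest p. For Mito-Lipo against DMSO the p only picked genes to show and is no evidence. It picked TM7SF2, MVK and STARD4, the same 3 as in Com and Gilteritinib against Mito-Lipo. HMGCS1, MVD, PMVK, IDI1, MSMO1, DHCR7, HSD17B7, SREBF1, SREBF2, ABCA1, ACSS2, ACLY, ACACA, FASN, FADS1, FADS2, LPIN1, FDPS, SC5D and HACD3 were named after their values were seen. Libraries of the same replicate number deviated together from their group means in 18 of 18 pairs (correlation 0.165 to 0.657), so the number was also fitted as a block. The alternatives were a pseudocount of 0.1, other filters, scalings and variance models, fewer libraries, a batch term for replicate 1 and leaving out each library. Motifs were searched as exact letters on both strands. The fit was tested on simulated data.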

Additional observations from a re-analysis of the deposited data

Results flagged for a closer look

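For 3 members the effect of Mito-Lipo without gilteritinib (Mito-Lipo against DMSO) kept 1 sign at every replicate number. The effect with gilteritinib (Com against Gilteritinib) kept the opposite sign, and this difference was not tested. The share of all genes with this pattern is not given, so the count is no result about the members. The first contrast is also the one behind the list. The effect at a number is the log2 ratio of (FPKM + 1) between the libraries of that number. The median effect over the 3 numbers without gilteritinib, less the median with it, was 1.15 for DHCR7, 0.26 for ACLY and -0.16 for SREBF1. The size varied between numbers: for DHCR7 the effects without and with gilteritinib were 0.24 and -0.02 at number 1 and 1.06 and -0.18 at number 2. Some signs rested on small gaps at number 1. SREBF1 was there at 21.3 FPKM with Mito-Lipo and 21.5 FPKM with DMSO. ACLY was at 86.1 FPKM in Com and 87.4 FPKM in Gilteritinib. The gilteritinib dose also differed between Com and Gilteritinib.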

How the results depend on the processing

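Which libraries entered decided the calls, and the cause was not tested. Calls in Mito-Lipo against DMSO, the contrast behind the list, were not counted under any setting, and CYP51A1 was left out of the counts against Mito-Lipo. At a limma adjusted p under 0.05 the members called over all libraries were 0 in the other comparisons. In replicates 2 and 3 only they were 1 for Gilteritinib against DMSO (0.614% of all genes) and, against Mito-Lipo, 25 for Com (6.13%) and 26 for Gilteritinib (6.63%), where the second list had 8 and 10. The Mito-Lipo libraries of that fit gave CYP51A1 its higher mean, so its calls against Mito-Lipo do not support the list. With replicate 1 as a batch term the members called were 6 for Gilteritinib against Mito-Lipo (1.36%), where the second list had 2. Leaving out 1 library gave, against Mito-Lipo, 0 to 6 for Com and 0 to 7 for Gilteritinib, the highest without Mito-Lipo replicate 1 (0.108% and 0.221%). Fits that left out 1 library had no term for the replicate number, so the replicate numbers were then unequal between the conditions compared. With an unadjusted p under 0.05, 1 member passed in Com against Gilteritinib (0.802% higher) and, against Mito-Lipo, 15 for Com (4.12% lower) and 13 for Gilteritinib (6.56% lower). On leaving out 1 library the median log2 difference of the members ran from -0.091 to 0.060 for Gilteritinib against DMSO, from -0.093 to 0.025 for Com against DMSO and from -0.127 to 0.058 for Com against Gilteritinib, and, against Mito-Lipo, from -0.53 to -0.24 for Com and from -0.56 to -0.20 for Gilteritinib. That of Com against Gilteritinib was -0.083 with median-ratio scaling and -0.012 in replicates 2 and 3. The replicate block, which pairs libraries by number, left 0 members and 0 genes of the second list called at the adjusted threshold. Over all genes it removed the 1 call in Com against DMSO and gave 2 and 5 calls for Com and Gilteritinib against Mito-Lipo. Depth limits ABCG1 most, at 19 fragments in 1 library.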
